A study of Homo sapiens with 4 samples.

Results

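The proteasome genes of SK-N-SH cells were taken from a table of read counts as the rows whose symbol was PSM, a family letter from A to G and a number. There were 45 such genes among the 24014 genes of the table. SK-N-SH is a human neuroblastoma cell line. The 2 control libraries, titled WT and labelled wild type in genotype, came from cells whose treatment label gives an empty lentivirus, and the 2 AP1AR-DT_OE libraries from cells given a lentivirus that expresses the long non-coding RNA AP1AR-DT. By these labels all 4 libraries come from lentivirus-treated cultures, and the comparison asks what AP1AR-DT overexpression did to proteasome transcripts. Nothing in the labels says whether the libraries of a group came from separate cultures, so p-values measure only the spread between these libraries, which may be technical. PSMB3 and the immunoproteasome genes PSMB8 and PSMB9 were not analysed here.

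The proteasome is the protease that degrades ubiquitin-tagged proteins. Its barrel is built of outer rings of alpha subunits, which gate the entrance, and inner rings of beta subunits, some of which cut peptide bonds. A regulatory cap with a ring of ATPases and a set of non-ATPase subunits binds, unfolds and feeds in the substrate. Other activators can replace that cap, interferon can exchange the catalytic beta subunits for immunoproteasome forms, and dedicated chaperones assemble the particle. In many cells the transcription factor NFE2L1 raises the subunit genes together when the proteasome is inhibited.

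The libraries held between 21988065 and 26184599 counts. AP1AR-DT, listed under the symbol RP11-73K9.2 (ENSG00000260526), had 3 counts in control 1, 18 in control 2, 680 in AP1AR-DT_OE replicate 1 and 1065 in replicate 2, with a log2 fold change of 6.63 (SE 0.64, DESeq2 adjusted p = 3.637e-21). Of the 10 adrenergic and 10 mesenchymal neuroblastoma markers examined, 9 and 10 had a row and more than 12 counts in at least 1 library. PRRX1, named after its values were seen, was the 1 mesenchymal marker with an unadjusted p under 0.05, and 0 adrenergic markers had one. PRRX1 had 2770 and 11360 normalized counts in the 2 controls, against 1241 and 2246 with AP1AR-DT. Its log2 fold change was -2.02 (SE 0.61, DESeq2 unadjusted p = 0.0009871, adjusted p = 0.431). CD14, EPCAM and VWF, markers of macrophages, epithelium and endothelium, stayed under 16 normalized counts in every library, while KRT8 and KRT18 were present in all 4. CSF1R, another macrophage marker, had 50.1 and 46.3 normalized counts in the 2 controls, against 60.3 and 57.6 with AP1AR-DT, and its part in the results was not tested.

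Several proteasome genes have processed pseudogenes, copies made from the spliced messenger RNA, and the table listed 16 pseudogene rows for 11 of the 45 genes. The stretches below compare a gene with its copy over an exon junction, where a copy of the spliced message keeps the sequence of the message. For each pair the junction with the fewest differences was chosen, with 40 bases on each side, all within coding sequence. They are read from GRCh37 annotation, 5′ to 3′ on the strand of the gene, and capitals mark bases that differ between the gene and the copy.
PSMA6: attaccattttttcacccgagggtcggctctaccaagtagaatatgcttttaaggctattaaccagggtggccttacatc
PSMA6P1: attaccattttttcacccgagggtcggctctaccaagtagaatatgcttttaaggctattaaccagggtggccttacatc
PSMC1: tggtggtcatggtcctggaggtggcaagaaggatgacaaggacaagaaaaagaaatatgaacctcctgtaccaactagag
PSMC1P1: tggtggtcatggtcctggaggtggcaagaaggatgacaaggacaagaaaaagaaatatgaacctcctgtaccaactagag
PSME2: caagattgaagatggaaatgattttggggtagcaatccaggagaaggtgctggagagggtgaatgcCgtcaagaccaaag
PSME2P2: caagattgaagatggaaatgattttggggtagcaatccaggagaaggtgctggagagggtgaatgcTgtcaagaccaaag
PSMC2: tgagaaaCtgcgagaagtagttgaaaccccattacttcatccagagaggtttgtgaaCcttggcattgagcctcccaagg
PSMC2P1: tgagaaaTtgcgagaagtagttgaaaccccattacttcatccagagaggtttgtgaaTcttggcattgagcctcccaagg

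These stretches span exons 1 and 2 of PSMA6 (chr14:35761719-35761758 and chr14:35777200-35777239, plus strand) and chrY:15398554-15398633 of PSMA6P1 (plus strand), exons 2 and 3 of PSMC1 (chr14:90725518-90725557 and chr14:90726459-90726498, plus strand) and chr3:68684873-68684952 of PSMC1P1 (plus strand), exons 7 and 8 of PSME2 (chr14:24613609-24613648 and chr14:24613429-24613468, minus strand) and chr13:49345635-49345714 of PSME2P2 (plus strand), and exons 7 and 8 of PSMC2 (chr7:103003847-103003886 and chr7:103004590-103004629, plus strand) and chr3:131894794-131894873 of PSMC2P1 (plus strand). The PSMA6 and PSMC1 stretches had 0 differences in 80 bases, that of PSME2 had 1 and that of PSMC2 had 2. Over the whole alignment PSMC1P1 was 99.92% identical to the PSMC1 transcript and PSMA6P1 was 97.44% identical to that of PSMA6. PSMC1P1 differed from PSMC1 by at most 1 base at any of the 9 junctions compared, while PSMA6P1, PSME2P2 and PSMC2P1 each differed from their genes by up to 5 bases at 1 of the junctions compared or more.

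In 7 of the 16 pseudogene rows the mean normalized count was above that of the gene itself. PSMA6, an alpha subunit, was listed at 25 and 78 counts in the 2 controls, against 15 and 96 with AP1AR-DT. Its copy PSMA6P1 was listed at 1737 counts in control 1, 6301 in control 2, 2547 in AP1AR-DT_OE replicate 1 and 4884 in replicate 2. The copy thus held between 98.1% and 99.4% of the counts of the pair in every library. PSMC1P1 held between 92.8% and 94.3% of its pair, and PSMC2P1 between 86.8% and 89.7%. PSME2P2 held between 94.9% and 96.4% of the counts of PSME2 and that copy. Another copy, PSME2P1, held between 84.6% and 89.5% of the counts of PSME2 and itself. PSMD12P1 held between 57.1% and 65.4%. For PSMD7, a non-ATPase subunit, the copy held 14.1% to 15.3%. The levels of these genes are therefore uncertain, because the counting could split reads between a gene and its copy. PSMB3P2, a copy of PSMB3, held 401 and 506 counts in the 2 controls, against 439 and 464 with AP1AR-DT.

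**Figure D1:**
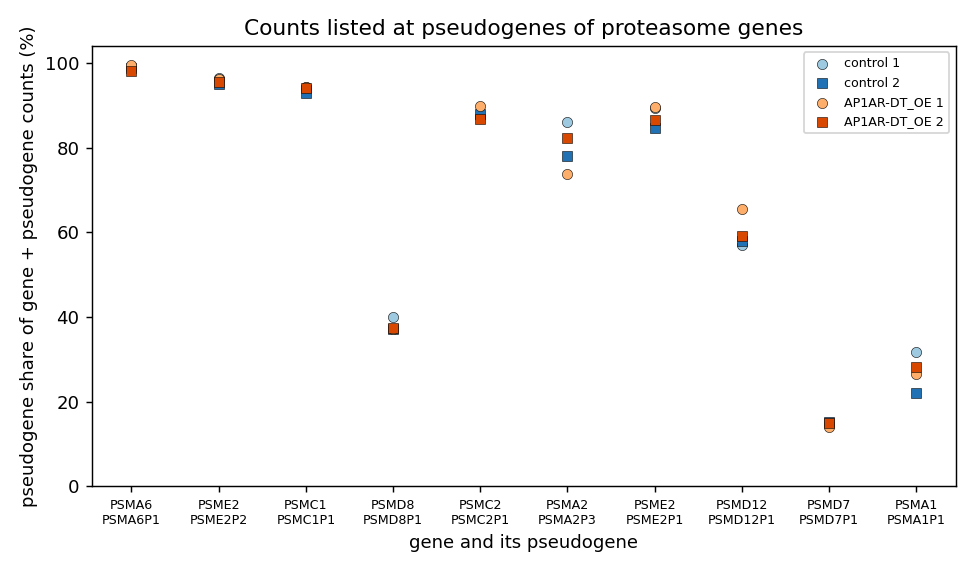
Share of the counts of a gene and its pseudogene that were listed at the pseudogene, in percent, for the 10 pairs whose pseudogene averaged 50 normalized counts or more. Each point is 1 library, and the share ranges from 14.1% for PSMD7P1 to 99.4% for PSMA6P1 and the 4 libraries of PSMA2P3 spread most, from 73.8% to 86.0%.

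Levels per kilobase of transcript, as the mean of the 4 libraries in normalized counts, differed widely among subunits that are present in equal number in the particle. In the beta group PSMB5 was highest at 6965 normalized counts per kilobase and PSMB2 lowest at 551.3, a ratio of 12.6. The 7 alpha genes other than PSMA8 ran from 21.2 for PSMA3 to 703.1 for PSMA7. With the counts of the pseudogenes added, PSMA6 became the highest alpha gene at 3588 per kilobase, and PSMC1 rose from 31.4 to 492.5. Across 44 members the per-kilobase level had a Spearman rho of 0.54 with the GC content of the transcript, and these points share the same 4 libraries. PSMA8, the alpha subunit of the testis, was listed at 3 counts in control 1 and at 0 in the other libraries. A count of 0 allows up to 12 counts here, or 3 read pairs of about 4 counts each, which covers counting error only.

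**Figure D2:**
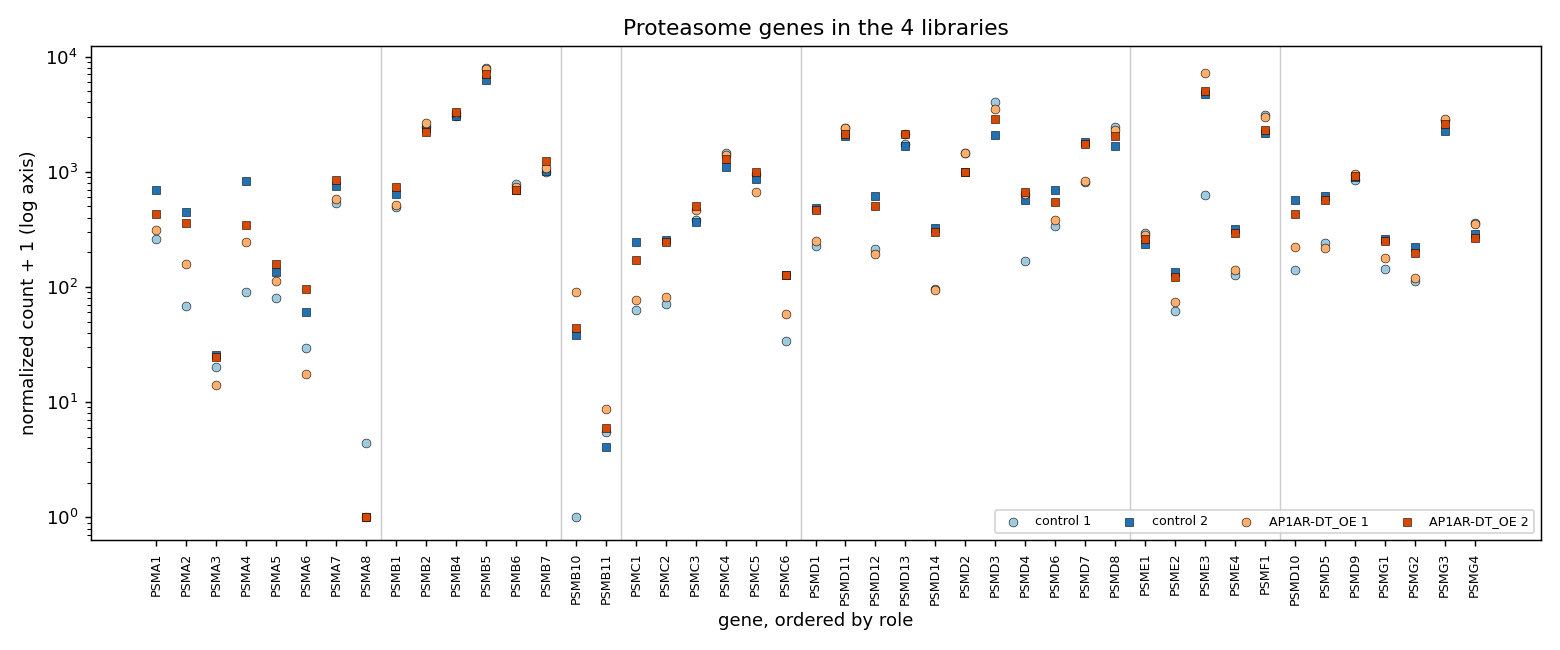
Normalized count plus 1 (log axis) of each of the 45 proteasome genes in the 4 libraries, ordered by role, with circles for number 1 and squares for number 2 of each group. PSMB5 is the highest gene at 6283 to 7892, and in many genes the points fall by library number rather than by group.

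At an adjusted p under 0.05, 0 of the 45 proteasome genes were called (DESeq2, all adjusted p = 1), and none had an unadjusted p under 0.05. Of all genes tested, 0.137% were called and 0.816% had an unadjusted p under 0.05. The edgeR quasi-likelihood test, which called 0 of all 17027 genes it tested and had 112 at an unadjusted p under 0.05, had 0 of its 43 members at that unadjusted threshold, and its 0 called members carry no information about them. Among the 41 members that averaged 50 normalized counts or more, the median log2 fold change was 0.01, against -0.02 over all 13298 such genes. The change was under 0.4 in size in 38 of the 41. The 95% interval lay wholly within a 2-fold change for 11 members, and for the other members a 2-fold change in at least 1 direction lay inside the interval.

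**Figure D3:**
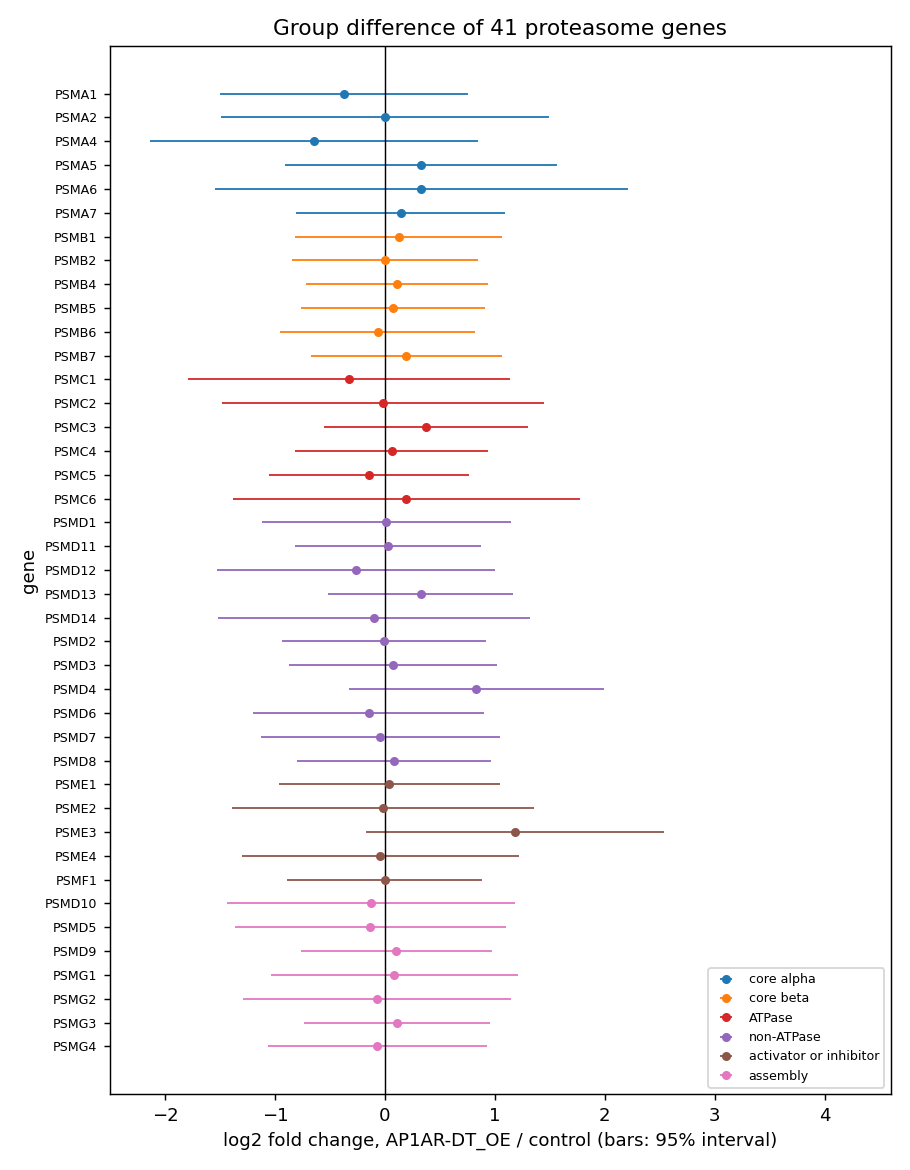
Log2 fold change of AP1AR-DT_OE over control with its 95% interval for the 41 proteasome genes whose mean reached 50 normalized counts, coloured by role. Every interval includes 0, and PSME3 (1.18) and PSMD4 (0.83) lie farthest to the right.

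In the alpha ring 0 of 8 genes passed the test. PSMA4 (chr15:78540405-78552417 in GRCh38) had the lowest value of the group. Its normalized counts were 88.8 in control 1, 826.2 in control 2, 243.5 in AP1AR-DT_OE replicate 1 and 341.4 in replicate 2. The controls lay on either side of the AP1AR-DT_OE libraries, and the log2 fold change was -0.65 (SE 0.76, DESeq2 adjusted p = 1). As listed, PSMA6 had the highest value, 0.33 (SE 0.96). It had 28.5 and 60.2 in the 2 controls, against 16.4 and 95.3 with AP1AR-DT, and these groups overlapped as well. With PSMA6P1 added the log2 fold change of PSMA6 was 0.16 (SE 0.54), against 0.33 for PSMA5 as listed. PSMA6 also shares exon sequence on its strand with another gene of the table, ENSG00000258790, and the sum of both had a log2 fold change of -1.01 (SE 0.56).

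Of the beta genes of the standard particle 0 of 6 passed, and their log2 fold changes ran from -0.07 to 0.20. PSMB5, the chymotrypsin-like subunit, had normalized counts of 7892 in control 1, 6283 in control 2, 7873 in AP1AR-DT_OE replicate 1 and 7037 in replicate 2. PSMB6, the caspase-like subunit, had 788.1 and 697.3 in the 2 controls, against 729.4 and 689.8 with AP1AR-DT. Both genes had overlapping groups. PSMB7, the trypsin-like subunit, had 1003 in control 1, 1018 in control 2, 1073 in AP1AR-DT_OE replicate 1 and 1242 in replicate 2, with a log2 fold change of 0.20 (SE 0.44). Its groups did not overlap, and the 95% interval of the log2 fold change ran from -0.67 to 1.06.

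PSMB10, which takes the place of PSMB7 in the immunoproteasome, was listed at 0 and 48 counts in the 2 controls, against 81 and 43 with AP1AR-DT. One control lay at 0 and the other near AP1AR-DT_OE replicate 2. The log2 fold change of 1.82 had an SE of 2.61, and its interval ran from -3.29 to 6.94. PSMB10 shares exon sequence on its strand with ENSG00000261884, which held 580 counts in control 1, 593 in control 2, 538 in AP1AR-DT_OE replicate 1 and 498 in replicate 2. The sum of both genes had a log2 fold change of 0.07 (SE 0.48). PSMB11, the beta subunit of the thymus, had at most 7 counts in any library. Of the 14 interferon-response and MHC class I genes with a row, 0 were called, and their median log2 fold change was -0.16 over the 13 with a mean of at least 50. IRF9, named after its values were seen, was the 1 gene of that list with an unadjusted p under 0.05, at a log2 fold change of -1.63 (SE 0.73, DESeq2 unadjusted p = 0.02632, adjusted p = 1). It had 656.0 and 100.3 normalized counts in the 2 controls, against 129.4 and 114.1 with AP1AR-DT, so control 1 alone stood above the rest. IRF9 lies near PSME2 on chromosome 14. ENSG00000259529, which overlaps PSME2 on the opposite strand, was listed at 0 and 773 counts in the 2 controls. With AP1AR-DT it was listed at 832 and 703. Whether reads were split between that gene and IRF9 was not tested.

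None of the 6 ATPase genes passed. PSMC3 was highest, with 381.5 and 362.6 in the 2 controls, against 465.1 and 499.2 with AP1AR-DT, and its groups did not overlap. The log2 fold change was 0.37 (SE 0.47, DESeq2 adjusted p = 1). As listed, PSMC1 was lowest at -0.33 (SE 0.75), with 61.5 in control 1, 245.3 in control 2, 75.7 in AP1AR-DT_OE replicate 1 and 169.7 in replicate 2. With the counts of its pseudogenes added PSMC1 was at -0.115 (SE 0.595), against -0.146 for PSMC5 as listed. Its place as lowest thus depends on how reads were assigned.

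Among the 11 non-ATPase genes 0 passed. PSMD4 (chr1:151254709-151267479 in GRCh38), a ubiquitin receptor of the cap, had 168.6 and 566.2 normalized counts in the 2 controls, against 645.0 and 665.0 with AP1AR-DT. Control 1 stood well below the other 3 libraries. The log2 fold change was 0.83 (SE 0.59, DESeq2 adjusted p = 1), and it was 0.21 without control 1 and 1.97 without control 2 (DESeq2 adjusted p = 0.02275). As listed, PSMD12, a subunit of the lid, was lowest at -0.26 (SE 0.64). It had 214.1 in control 1, 618.7 in control 2, 192.0 in AP1AR-DT_OE replicate 1 and 502.2 in replicate 2. With PSMD12P1 added PSMD12 was at -0.141 (SE 0.60), against -0.147 for PSMD6 as listed.

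Of the activators and the inhibitor PSMF1, 0 of 5 passed. PSME3 (chr17:42824385-42843760 in GRCh38) forms a ring activator in the nucleus. It overlaps BECN1 on the opposite strand, and reads of the pair cannot be told apart where counting ignores strand. PSME3 had 621.9 and 4766 normalized counts in the 2 controls, against 7238 and 4975 with AP1AR-DT. Control 1 was far below the rest, and control 2 lay near AP1AR-DT_OE replicate 2. The log2 fold change was 1.18 (SE 0.69, unadjusted p = 0.08806, DESeq2 adjusted p = 1). Within number 1 the log2 ratio was 3.54 and within number 2 it was 0.06. Without control 1 the log2 fold change was 0.36, and without control 2 it was 3.31 (DESeq2 adjusted p = 4.087e-12), so the value rests on control 1. PSME1 and PSME2 form the interferon-inducible activator. PSME1 had 293.8 in control 1, 233.0 in control 2, 281.9 in AP1AR-DT_OE replicate 1 and 259.1 in replicate 2. PSME2 had 60.4 and 135.0 in the 2 controls, against 73.5 and 120.1 with AP1AR-DT. Both had overlapping groups, with log2 fold changes of 0.04 and -0.02. The limit on strand given for PSME3 applies to PSME1 and PSME2 as well. PSME1 shares exon sequence with EMC9, at 606 and 655 counts in the 2 controls, against 603 and 531 with AP1AR-DT. PSME2 shares it with ENSG00000259529 and with RNF31. RNF31 had 1892 and 1106 counts in the 2 controls, against 1373 and 1108 with AP1AR-DT. With the counts of its pseudogenes added PSME2 had 2209 and 3418 in the 2 controls, against 2597 and 3509 with AP1AR-DT. The log2 fold change of PSME2 was then 0.12 (SE 0.46). Whether PSME2 is lower or higher than PSME1 is therefore uncertain. PSME4, the large nuclear activator, was lowest of the group at -0.04 (SE 0.64).

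The 7 assembly factors lay between -0.13 for PSMD5, a chaperone of the cap's base, and 0.11 for PSMG3, a chaperone of the alpha ring. PSMD5 had 238.0 in control 1, 620.2 in control 2, 216.1 in AP1AR-DT_OE replicate 1 and 566.7 in replicate 2. PSMG3 had 2803 and 2270 in the 2 controls, against 2853 and 2620 with AP1AR-DT. In both genes the groups overlapped, and 0 of 7 passed the test.

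Both AP1AR-DT_OE libraries lay above both controls in 7 of the 41 members, or 17.1%, where 5.11% of all genes with such a mean did so. These were PSMB4, PSMB7, PSMC3, PSMD4, PSMD9, PSMD13 and PSME3, and those outside the fixed naming rule were named after their values were seen. PSMD9 shares exon sequence on its strand with ENSG00000256950. The sum of both had 1034 and 897.1 normalized counts in the 2 controls, against 988.3 and 943.0 with AP1AR-DT. Those groups overlapped, with a log2 fold change of 0.0 (SE 0.445). The place of PSMD9 among the 7 thus depends on how reads were assigned. This sum was chosen after seeing the data. Both lay below both controls in 0 members, where 4.35% of all such genes did so. None of the 7 passed the test across all genes, and with 2 libraries a group an exact two-sided permutation test cannot go below p = 0.333.

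The spread within the groups was larger than the difference between them. The controls differed from each other by more than 2-fold in 18 of the 41 members, and the AP1AR-DT_OE libraries did so in 10. In 36 members the log2 ratio of the controls was larger in size than the log2 fold change between the groups. A ratio of single libraries varies more than a difference between groups of 2, so this count is no test of an effect. Its share over all genes was not computed. The median size of the log2 ratio was 0.86 between the controls, 0.49 between the AP1AR-DT_OE libraries and 0.10 between the groups. Over all genes with such a mean these were 0.72, 0.42 and 0.12.

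The difference between libraries moved with the GC content of the transcripts. Across the 41 members the log2 ratio of control 2 to control 1 had a Spearman rho of -0.72 with GC content, and that of AP1AR-DT_OE replicate 2 to replicate 1 had -0.67. Over all genes with such a mean these were -0.79 and -0.66. The log2 fold change between the groups had a rho of 0.31 across the members, against 0.28 over all such genes. In the 20 members with less than 47.9% GC the median log2 ratio of control 2 to control 1 was 1.36, and in the other 21 it was -0.15. The log2 ratio of AP1AR-DT_OE to control within number 1 was above 0 in 15 of those 20 low-GC members, while within number 2 it was above 0 in 4. The share over all genes was not computed for these counts. Across the 41 members the rho of this ratio with GC content was -0.341 within number 1 and 0.568 within number 2. Over all genes with such a mean it was -0.343 and 0.635. Within number 1 and within number 2 the direction was opposite in 24 of the 41 members. Over all genes with such a mean the direction was opposite in 61.4%. The part of GC content in the differences between libraries was not tested.

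**Figure D4:**
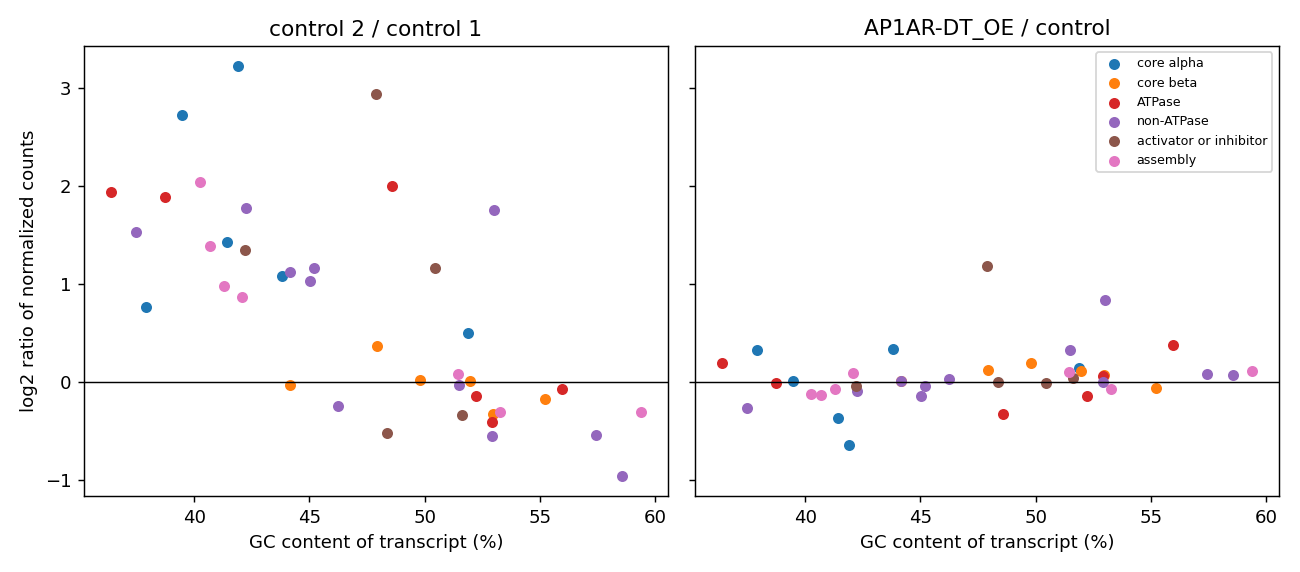
Log2 ratio of control 2 to control 1 (left) and log2 fold change of AP1AR-DT_OE over control (right) against the GC content of the transcript in percent, for 41 proteasome genes coloured by role. The control ratio falls as GC content rises (rho -0.72). Most group differences lie near 0, and their rho with GC content is 0.31.

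Of the 40 other genes of the ubiquitin and proteasome pathway with a row, 0 were called, and 1 had an unadjusted p under 0.05. This was USP14, a deubiquitinase that trims ubiquitin chains at the proteasome. It had 469.2 normalized counts in control 1, 217.5 in control 2, 103.1 in AP1AR-DT_OE replicate 1 and 150.9 in replicate 2, with a log2 fold change of -1.43 (SE 0.59, DESeq2 unadjusted p = 0.01507, adjusted p = 1). NFE2L1 had 23850 and 14690 in the 2 controls, against 21810 and 15830 with AP1AR-DT, with overlapping groups and a log2 fold change of -0.03 (SE 0.46). POMP, the chaperone that matures the beta rings, had 85.4 in control 1, 199.8 in control 2, 105.3 in AP1AR-DT_OE replicate 1 and 172.7 in replicate 2, with a log2 fold change of -0.04 (SE 0.65).

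RefSeq promoters (GRCh38.p14, 250 bases before to 50 after the start) were found for 39 of the 45 genes, as 47 promoters, since some genes have more than 1 annotated start and a promoter of a later start can lie inside the gene. The letters TGACNNNGC, the form of the antioxidant response element that NFE2L1 binds, were found on either strand in 13 of the 47, or 27.7%, against 13.3% of all 35116 promoters. CCAAT was found in 38.3% against 34.6%, GGGCGG in 66.0% against 45.0%, and the element of interferon-response genes in 12.8% against 3.6%. CGCANGCG, the core of the site of the factor NRF1, was found in 10 of the 47 promoters and in 3527 of the 35116. A match describes the letters only. The 2 stretches below show the first of these motifs, in capitals, in members described above; they lie at chr17:67366714-67366762 (minus strand) for PSMD12 and chr14:24136088-24136136 (plus strand) for PSME1.
PSMD12: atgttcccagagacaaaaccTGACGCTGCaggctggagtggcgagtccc
PSME1: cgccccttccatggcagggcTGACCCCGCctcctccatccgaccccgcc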

How the data were processed

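RNA from 4 SK-N-SH libraries was sequenced in pairs of 150-base reads, and each library was assigned to its group by its title, although other labels of AP1AR-DT_OE replicate 2 give the RNA a different version suffix. According to the methods, the authors aligned reads with HISAT2 to hg19 and took read counts from StringTie's output with its script. The deposited columns hold whole numbers whose totals differ between libraries, and they were read as estimated counts with no normalization. The submitters' processing notes name TopHat2 2.0.4, HTSeq and edgeR 2.6.12 instead. A read pair was worth about 4 counts, read from the low values. Whether counting used strand is not given in the sources used here. The table also holds the authors' own fold changes and p-values, which were not used. Its coordinates are GRCh38, while transcript GC content, lengths and pseudogene sequences came from GRCh37 annotation.

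Counts were tested over the whole table with DESeq2 1.42.0 in R 4.3.3 (Wald test, two-sided, Benjamini-Hochberg), with edgeR 4.0.16 as an alternative. Normalized counts are counts divided by DESeq2 size factors, and group differences are unshrunken. The script was tested on simulated counts with known changes, drawn with the final dispersion of each gene and, added after the first run, with the fitted trend. With both, many of the smaller known changes were not called and the share of false calls was above the nominal threshold, so with 2 libraries a group a gene that was not called may have changed and a called gene may not have. The members and lists were chosen with earlier results of these data known. Named members were any with an unadjusted p under 0.05, the highest and lowest log2 fold change of each role group among means of at least 50, the catalytic beta genes, PSME1 and PSME2, and beyond them NFE2L1, POMP, AP1AR-DT and pathway genes with an unadjusted p under 0.05.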

Additional observations from a re-analysis of the deposited data

How the results depend on the processing

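Proteasome genes called stayed at 0 of those tested under all alternatives except leaving out a library, where the count ran from 0 to 2 (PSME3 and PSMD4 without control replicate 2). Over all genes 33 were called, 57 with a GC correction, 60 with that correction and the replicate block, 15 with counts divided by 4, 0 with edgeR's quasi-likelihood fit (where 112 had an unadjusted p under 0.05), and 45 to 90 without 1 library. The cause was not tested. The median log2 fold change of the members ran from -0.16 to 0.47 without 1 library. With TMM size factors 1 member lay below both controls, and 5 lay above with these or with the GC correction. The share over all genes was not computed under these settings, so these counts have no background to be read against.

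The replicate block called 37 genes and 0 members, with PSMD4 at an unadjusted p of 0.007817 (DESeq2 adjusted p = 1). Deviations of same-numbered libraries had a correlation of 0.46 over 13298 genes and 0.60 over the 41 members, but no label calls the number a batch. With the block the log2 fold change of PSMA4 was 0.08, of PSMA6 -0.02, of PSME2 0.05 and of PSME4 0.01, and with the block and the GC correction PSMA4 was 0.14, PSME2 0.03 and PSME4 0.07, all with another sign than in the report. PSME4 was 0.08 with the GC correction alone. With overlapping genes summed PSMA6 was -1.01, and with pseudogene rows summed PSME2 was 0.12, both settings chosen after seeing the data.

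Without 1 library the log2 fold changes ran from -1.50 to 1.73 for PSMA4, -1.45 to 1.09 for PSMA6, -0.07 to 0.25 for PSMB5, -0.14 to 0.02 for PSMB6, -1.04 to 1.01 for PSMC1, -1.14 to 0.71 for PSMD12, -1.01 to 0.73 for PSMD5, -0.11 to 0.21 for PSME1, -0.48 to 0.69 for PSME2, -0.69 to 0.80 for PSME4, and -0.02 to 0.27 for PSMG3. The lone library of a group was then assumed to vary like the other group. PSMB7 (0.07 to 0.29), PSMB10 (0.83 to 8.30, and 4.44 with the replicate block), PSMC3 (0.31 to 0.42), PSMD4 (0.21 to 1.97) and PSME3 (0.36 to 3.31) kept their direction in these fits.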
